A study of Arabidopsis thaliana with 6 samples.

Results

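The 8 AINTEGUMENTA-like genes of Arabidopsis thaliana encode transcription factors with a pair of AP2 DNA-binding domains, and 6 of them carry the name PLETHORA or BABY BOOM. They are PLT1 (AT3G20840), PLT2 (AT1G51190), PLT3 (AT5G10510), BBM (AT5G17430), PLT5 (AT5G57390), PLT7 (AT5G65510), AIL1 (AT1G72570) and ANT (AT4G37750). Members were taken by locus identifier, and all 8 were present, with 19 transcript isoform rows, in a table of 27655 loci and 48359 isoform rows. The values are TPM, a transcript abundance that is scaled for transcript length and sums to 1000000 in each sample.

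In the root, PLETHORA proteins form a gradient that is highest at the stem cell niche, where high levels keep stem cells, intermediate levels keep cells dividing and low levels allow them to differentiate. PLT1 and PLT2 are the main pair in the niche, and PLT3 and BBM act with them. PLT3, PLT5 and PLT7 also act in lateral root formation, BBM induces embryo-like growth when overexpressed, and ANT promotes the growth of floral organs and ovules.

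RNA came from root tips in 3 samples of wild type (WT) and 3 of the sos2-2 mutant. The kinase SOS2 belongs to the Salt Overly Sensitive pathway, by which cells export sodium. All seedlings were 6 days old and were held for 12 hours in liquid medium with 100 mM NaCl, so that no sample was without salt, and a genotype difference that exists without salt cannot be told apart from one that needs it. The series' design text names gl1, but the sources used here do not say which samples, if any, carry that allele, nor what the lesion of sos2-2 is. They do not say either that replicates were grown as separate cultures, so p-values cover only sample-to-sample spread, possibly technical. TPM keeps no depth, and the depth of the libraries is unknown. Between 18812 and 19141 loci reached 1 TPM in a sample. Correlations of log2(TPM + 1) across loci were 0.976 to 0.991 within WT, 0.954 to 0.982 within sos2-2 and 0.726 to 0.824 across genotypes. Markers of the labelled tissue were present in both genotypes, since none of the 3 root cap and 6 dividing cell markers was at 0 in either group.

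All 8 members share an internal exon of 9 bases, spliced into the coding sequence for the AP2 domains. Such an exon occurred in 24 of 27443 loci with a coding model (0.0875%). Of those 24 loci 8 are the members, and 4 are among the 10 other genes of the AP2 group. The spliced sequences show what the members have in common there, with the 9-base exon in capitals and 15 coding bases of the neighbouring exons on each side, from RefSeq models on TAIR10.1.
PLT1: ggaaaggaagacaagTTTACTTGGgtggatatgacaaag
PLT2: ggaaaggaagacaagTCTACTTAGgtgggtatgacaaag
PLT3: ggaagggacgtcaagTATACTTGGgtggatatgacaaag
BBM: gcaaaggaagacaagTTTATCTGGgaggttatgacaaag
PLT5: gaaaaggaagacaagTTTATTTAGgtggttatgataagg
PLT7: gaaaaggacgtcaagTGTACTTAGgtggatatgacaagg
AIL1: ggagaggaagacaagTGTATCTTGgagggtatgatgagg
ANT: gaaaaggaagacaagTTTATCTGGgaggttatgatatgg
Of the 9 positions 5 were identical in all 8 members (TNTANNTNG), and the 28 pairs differed at 0 to 4 of them. BBM and ANT had the same 9 bases. The exon of PLT3 lies at chr5:3318813-3318821 on the plus strand and is exon 4 of the model shown.

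The coding sequences were most alike for PLT1 with PLT2 (81.1% identity over 1622 aligned bases) and for PLT3 with PLT7 (80.9% over 1407). The other pairs lay between 65.5% and 72.4%. Stretches of 31 bases were rarely shared. PLT1 and PLT2 shared 13, PLT3 and PLT7 shared 4, and BBM and ANT shared 2, so few reads of that length can be assigned to the wrong member.

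Among the 6 members above the filter of a mean of 1 TPM, PLT3 and PLT5 were higher in sos2-2, BBM was lower, and PLT1, PLT2 and ANT were not called. A call is an adjusted p under 0.05 in limma on log2(TPM + 1), fitted on 19527 loci, of which 65.4% were called, 31.3% higher and 34.1% lower. The members' 3 of 6 is thus no larger a share than that of all loci. The groups did not overlap for the same 3 of the 6, and they did not overlap for 72.1% of all tested loci.

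PLT3 had the highest level of the family in every sample. It stood at 20.2, 14.9 and 18.2 TPM in WT and at 103, 105 and 120.2 TPM in sos2-2. Every sos2-2 sample was far above every WT sample, and the ratio of the means was 6.15. The difference in log2(TPM + 1) was 2.56 (SE 0.14, limma adjusted p = 1.27e-05), and 640 of the 19527 tested loci (3.28%) had a larger rise.

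PLT5, known for roles in lateral root and shoot organ positioning, was at 4.23, 4.89 and 3.56 TPM in WT and at 5.59, 7.35 and 7.34 TPM in sos2-2. The groups lay close together without overlapping, and the ratio of means was 1.60. The log2 difference was 0.57 (SE 0.17, limma adjusted p = 0.0194). The call was lost without WT replicate 3 (adjusted p = 0.0854) or without sos2-2 replicate 3 (adjusted p = 0.0693).

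BBM was at 5.76, 4.21 and 5.04 TPM in WT and at 1.90, 2.12 and 1.38 TPM in sos2-2. Every sos2-2 sample was below every WT sample, and the sos2-2 mean was 0.360 of the WT mean. The log2 difference was -1.10 (SE 0.18, limma adjusted p = 0.0012), and 2882 tested loci (14.8%) fell further.

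PLT1 and PLT2, the main pair of the root niche, overlapped between genotypes. PLT1 was at 7.87, 4.25 and 6.03 TPM in WT and at 5.06, 6.49 and 6.29 TPM in sos2-2. PLT2 was at 7.14, 4.82 and 6.64 TPM in WT and at 6.23, 9.50 and 7.56 TPM in sos2-2. In both genes WT replicate 2 was the lowest of all 6 samples. The log2 differences were 0.0059 (SE 0.21, limma adjusted p = 0.983) for PLT1 and 0.28 (SE 0.20, limma adjusted p = 0.241) for PLT2. The sign for PLT1 turned when single samples were left out and with a pseudocount of 5, as did that of ANT under quantile normalization.

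The remaining members were low. ANT ranged from 0.767 to 1.33 TPM in WT and from 0.881 to 1.13 TPM in sos2-2 (log2 difference -0.11, SE 0.19, limma adjusted p = 0.635). PLT7 ranged from 0.466 to 0.797 TPM in WT and from 0.313 to 0.875 TPM in sos2-2, below the filter. AIL1 was listed at 0 in all 3 WT libraries and at 0.494, 0.904 and 0.791 TPM in sos2-2. Its mean was below the filter too, and no ratio is given against a group at 0.

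**Figure D1:**
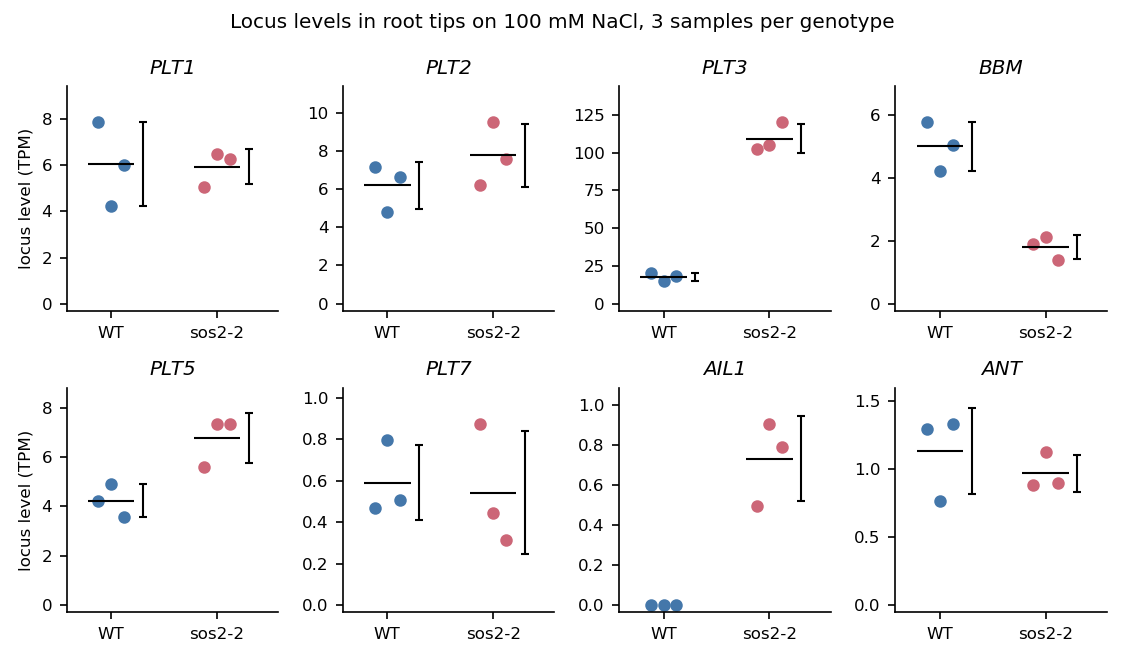
Locus level in TPM (vertical axis, a scale of its own in each panel) for the 8 members, with 1 point per sample, WT in blue and sos2-2 in red; horizontal lines are means and bars 1 SD of 3 samples, left out where all 3 values are 0. PLT3 rises from 14.9 to 20.2 TPM in WT to 103 to 120.2 TPM in sos2-2, BBM falls, and PLT1, PLT2, PLT7 and ANT overlap.

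The order of levels changed below PLT3. In WT the ranges of PLT2, PLT1, BBM and PLT5 all overlapped, with means of 6.20, 6.05, 5.00 and 4.23 TPM. ANT and PLT7 followed with overlapping ranges, and AIL1 was last at 0. In sos2-2 the ranges of PLT2, PLT5 and PLT1 overlapped, with means of 7.76, 6.76 and 5.95 TPM. BBM stood apart below them at 1.80 TPM. ANT, AIL1 and PLT7 lay at or below 1.13 TPM, where the range of AIL1 overlapped that of ANT and that of PLT7. ANT lay just above PLT7, with lowest and highest values of 0.881 and 0.875 TPM.

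PLT3 held nearly the same part of the summed TPM of the family in each WT sample, 43.0%, 43.1% and 44.1%. In sos2-2 it held 83.0%, 79.0% and 83.0%. The summed level was 41.0 ± 6.13 TPM in WT and 133.8 ± 10.6 TPM in sos2-2 (SD, n = 3 each), a ratio of 3.27. Without PLT3 the sums were 23.2 ± 3.51 and 24.5 ± 3.45 TPM, so that replicates of 1 genotype lay further apart than the means. Left-out single samples moved their ratio of 1.06 to between 0.983 and 1.14. BBM's part was 12.3%, 12.1% and 12.2% in WT and 1.54%, 1.59% and 0.950% in sos2-2. The parts of PLT1, PLT2, PLT5, PLT7 and ANT were lower in sos2-2 without overlap as well. That of PLT5 went from a mean of 10.6% to 5.04%, although its TPM was higher in sos2-2. Only PLT3 and AIL1 held a larger part in sos2-2. These parts are given as a description, with no test.

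PLT3 has 7 annotated models at chr5:3315401-3320323 on the plus strand, and they differ at the 5′ end and around the 9-base exon. Models 1, 3, 4 and 6 leave the 5′ coding exon at an upstream splice donor (last exon base 3316132). Models 2, 5 and 7 leave it 358 bases further on (last exon base 3316490). Both donors join the same acceptor (first exon base 3316591). The coding sequence of models 3, 4 and 6 begins at 3315991, that of model 1 at 3316036, in frame and 15 codons later, and that of models 2, 5 and 7 at 3316463, past the upstream donor. The proteins have 584 codons in models 4 and 6, 569 in model 1, 604 in model 3, 546 in models 5 and 7 and 543 in model 2. The sequences below are genomic, 5′ to 3′ on the plus strand of TAIR10.1, and show these alternatives. Capitals mark the start codons, the first GT of each intron and the last AG before the shared acceptor.
PLT3 upstream starts (chr5:3315991-3316050): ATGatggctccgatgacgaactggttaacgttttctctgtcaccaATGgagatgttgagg
PLT3 upstream donor (chr5:3316113-3316142): tctcctcgataatttctatgGTaccctttt
PLT3 downstream start and donor (chr5:3316463-3316500): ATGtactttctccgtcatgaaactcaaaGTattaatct
PLT3 shared acceptor (chr5:3316571-3316610): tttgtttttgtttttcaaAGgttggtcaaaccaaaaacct
At the 9-base exon, model 3 has instead an exon of 69 bases that ends 1 base before it, and model 2 has neither. The next line gives the 69-base exon and the base between in lower case and the 9-base exon in capitals.
PLT3 alternative exons (chr5:3318743-3318821): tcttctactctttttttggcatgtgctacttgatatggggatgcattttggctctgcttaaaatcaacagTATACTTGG

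**Figure D2:**
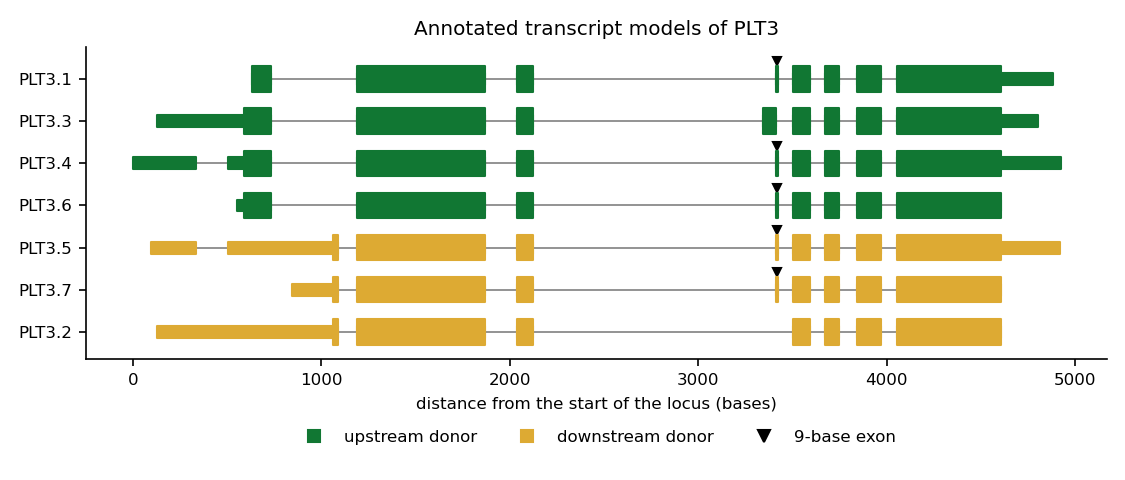
The 7 annotated models of PLT3 on an axis of distance in bases from the start of the locus; thick bars are coding, thinner bars untranslated exon parts and lines introns, with the 9-base exon marked by a triangle. Models 2, 5 and 7 (yellow) use the donor 358 bases downstream of that in models 1, 3, 4 and 6 (green).

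PLT3 models 1, 4 and 6 rose in sos2-2. In the fit of 27461 isoforms 50.8% were called, 25.1% higher and 25.7% lower, and the groups did not overlap for 61.3%. Of the 19 member isoforms 10 passed the filter, of which 5 were called higher and 2 lower, and for these 7 the groups did not overlap. PLT3 model 5 and BBM model 2 passed the filter only through the genotype in which they were high, so their place in these counts supports nothing. Model 1 stood at 5.61, 0.876 and 2.93 TPM in WT and at 41.8, 49.5 and 35.4 TPM in sos2-2 (log2 difference 3.55, SE 0.42, limma adjusted p = 0.000537). Model 4 stood at 7.76, 5.23 and 6.93 TPM in WT and at 22.1, 25.8 and 34.4 TPM in sos2-2 (log2 difference 1.89, SE 0.21, limma adjusted p = 0.000397). Model 6 stood at 6.14, 8.33 and 7.79 TPM in WT and at 24.8, 20.3 and 40.2 TPM in sos2-2 (log2 difference 1.76, SE 0.26, limma adjusted p = 0.00124). Each of the 3 was higher in every sos2-2 sample than in any WT sample.

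Model 5, of the downstream donor, was at 0.563, 0.323 and 0.0665 TPM in WT and at 12.7, 7.496 and 9.58 TPM in sos2-2. It was below 1 TPM in every WT sample and far above that in every sos2-2 sample. Models 2, 3 and 7 were below the filter. Model 3 was at 0.0890, 0.184 and 0 TPM in WT and at 0.839, 1.94 and 0.585 TPM in sos2-2, while models 2 and 7 stayed at or under 0.394 TPM in all 6 samples.

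**Figure D3:**
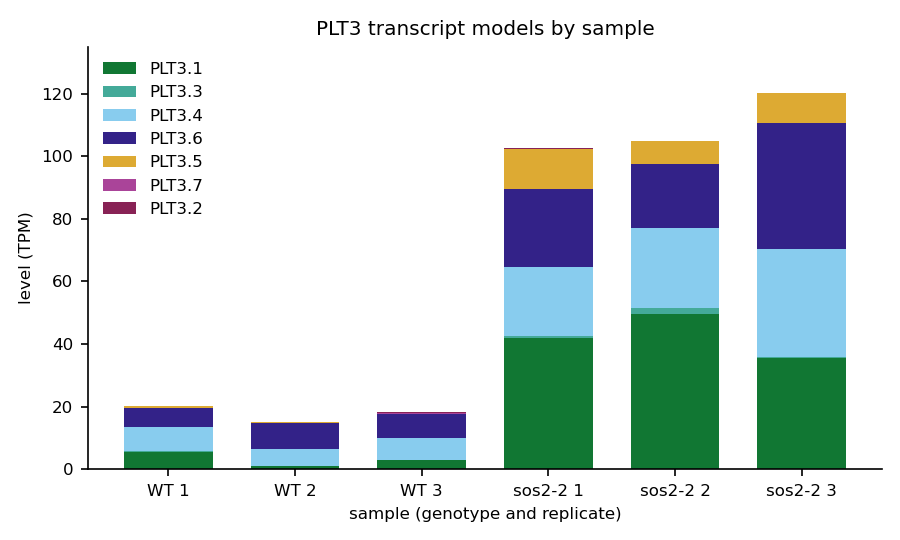
Level in TPM of each PLT3 model, stacked for each of the 6 samples, so that the height of a bar is the locus level. Models 1, 4 and 6 make up most of every bar, and model 5 (yellow) is visible in the 3 sos2-2 samples.

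The mix of PLT3 models was set out as the share of the locus TPM. Models of the downstream donor together held 2.79%, 2.17% and 3.05% in WT and 12.7%, 7.14% and 7.97% in sos2-2. All 3 sos2-2 samples were above all 3 WT samples. This grouping was made after the values were seen and has no test. Model 1 held 27.8%, 5.86% and 16.1% in WT and 40.7%, 47.1% and 29.4% in sos2-2. Model 4 held 38.5%, 35.0% and 38.1% in WT and 21.6%, 24.5% and 28.7% in sos2-2. For models 1 and 4 the groups did not overlap, which also held for 27.0% of all shares tested. Model 6 held 30.5%, 55.7% and 42.8% in WT and 24.2%, 19.4% and 33.4% in sos2-2, and its groups overlapped.

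No change in a member's share passed the test. Shares were compared with limma on the arcsine scale over 15227 isoforms of 7420 loci, of which 1.48% were called, 0.768% higher and 0.709% lower. Of the 6 member shares tested 0 were called. At an unadjusted p under 0.05 there were 3, those of PLT3 models 1, 4 and 5, against 19.5% of all shares. Their adjusted p was 0.208, 0.146 and 0.129 by limma. On a logit scale limma called 0 of the 6 as well. PLT3 model 5 passed the share filter only through sos2-2, with mean shares of 1.77% in WT and 9.15% in sos2-2. PLT5 model 2 passed it only through WT, with 18.0% in WT and 0% in sos2-2. The place of these 2 shares in the counts above supports nothing. The shares of 1 locus sum to a fixed total, so they are not independent of each other.

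Nearly all PLT3 TPM in both genotypes came from models with the 9-base exon. They made up 99.6%, 98.8% and 99.2% of PLT3 TPM in WT and 98.8%, 98.2% and 99.5% in sos2-2, and the groups overlapped. The model with the 69-base exon held at most 1.85% in any sample.

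Models 1 and 6 lie wholly within model 4, and model 7 lies within model 5, so they hold 0 stretches of 31 bases of their own. Model 5 has 0 as well, since every stretch of it is also in another PLT3 model. Model 4 has 101. The split of TPM among models 1, 4 and 6 thus rests largely on coverage along a shared sequence. The sum of the 3 was 17.2 ± 2.57 TPM in WT and 98.1 ± 10.9 TPM in sos2-2 (SD, n = 3 each), a ratio of 5.71. The downstream donor models together were at 0.563, 0.323 and 0.555 TPM in WT and at 13.1, 7.496 and 9.58 TPM in sos2-2, a ratio of means of 20.9. In WT replicate 3 most of that level was assigned to model 7 (0.337 TPM) and little to model 5 (0.0665 TPM).

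The 3′ end of PLT3 overlaps RBK1 (AT5G10520), a kinase gene on the opposite strand, by up to 454 bases. Model 4 shared 424 of its stretches of 31 bases with RBK1 (17.2%), and model 6, which stops at the end of the coding sequence, 109 (6.18%). The strand setting of the libraries is unstated in the sources used here, so reads of the overlap may belong to either gene. RBK1 was at 16.0, 21.6 and 20.4 TPM in WT and at 18.2, 32.8 and 28.1 TPM in sos2-2 (log2 difference 0.40, SE 0.22, limma adjusted p = 0.149), and it was looked at after its values were seen. RBK1 was called higher without sos2-2 replicate 1 (log2 difference 0.64, limma adjusted p = 0.00902) and with the replicate number as a block (limma adjusted p = 0.0411). The part of RBK1 reads in the PLT3 values was not tested.

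BBM and PLT5 each have 2 models with different first exons, on the minus strand of chromosome 5. The longer proteins (584 codons for BBM and 558 for PLT5) start in a separate first exon. The shorter BBM protein (522 codons) starts at a codon inside the first intron of model 1. The shorter PLT5 protein (440 codons) starts in frame inside the second exon of model 1. The first 30 coding bases show these alternative starts, read on the minus strand of TAIR10.1 with the start codon in capitals.
BBM.1 (chr5:5745539-5745568): ATGaactcgatgaataactggttaggcttc
BBM.2 (chr5:5745023-5745052): ATGaatcaaacccaacgttggggatcgctt
PLT5.1 (chr5:23256408-23256437): ATGaagaacaataacaacaaatcttcttct
PLT5.2 (chr5:23255671-23255700): ATGcaacaagtgcaatctcttggcggcgtt
Each of the 4 models holds stretches of 31 bases that its partner lacks, 418 and 212 for BBM models 1 and 2 and 600 and 74 for PLT5 models 1 and 2.

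Both BBM models fell. Model 1 was at 2.52, 2.66 and 3.51 TPM in WT and at 1.204, 1.41 and 1.38 TPM in sos2-2 (log2 difference -0.73, SE 0.23, limma adjusted p = 0.0307). Model 2 was at 3.24, 1.54 and 1.53 TPM in WT and at 0.697, 0.714 and 0 TPM in sos2-2. It passed the filter only through WT, so its call (log2 difference -1.08, SE 0.36, limma adjusted p = 0.0405) supports nothing. The call of model 1 was lost without any 1 sample except sos2-2 replicate 2 (adjusted p up to 0.1397) and with the replicate number as a block (adjusted p = 0.0658). That of model 2 was lost without WT replicate 2 or 3 or sos2-2 replicate 3 (adjusted p up to 0.107), without a filter (0.0534), with a pseudocount of 0.1 (0.0849) and under quantile normalization (0.0682). Without WT replicate 1 model 2 was below the filter. Model 2 held 56.3%, 36.7% and 30.4% of BBM TPM in WT and 36.7%, 33.7% and 0% in sos2-2, with overlapping groups.

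PLT5 was carried by model 1, which was at 2.25, 4.89 and 3.301 TPM in WT and at 5.59, 7.35 and 7.34 TPM in sos2-2 (log2 difference 0.83, SE 0.26, limma adjusted p = 0.0341). That call was lost without WT replicate 1 or 3 or sos2-2 replicate 2 or 3 (adjusted p up to 0.0980) and without a filter (adjusted p = 0.0548). Model 2 was listed at 0 in all 3 sos2-2 libraries and was at 1.97, 9.2e-05 and 0.261 TPM in WT, so that 1 WT sample held nearly all of it. The 4 models of PLT7 were each at 0 in at least 3 samples and did not exceed 0.509 TPM. PLT1, PLT2, AIL1 and ANT have 1 row each.

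**Figure D4:**
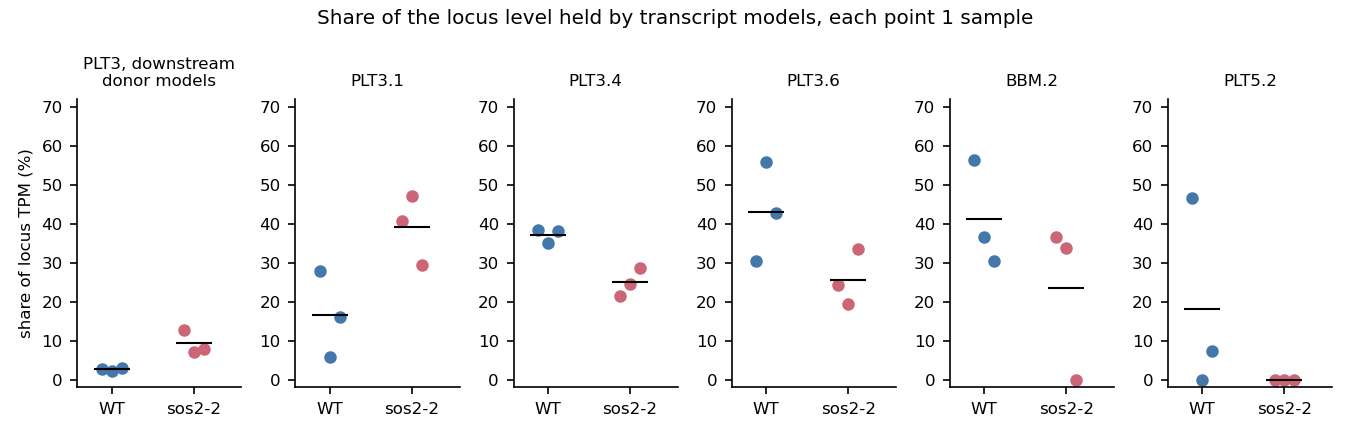
Share of the locus TPM in percent (vertical axis) for PLT3 models of the downstream donor together, PLT3 models 1, 4 and 6, BBM model 2 and PLT5 model 2; each point is 1 sample, WT in blue and sos2-2 in red, and lines are group means. The downstream donor share is 2.17% to 3.05% in WT and 7.14% to 12.7% in sos2-2, and the BBM shares overlap.

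The counts of called genes in the related lists stand beside 31.3% higher and 34.1% lower over all loci tested. Of 20 genes that act before PLETHORA factors, all tested, 5 rose, 9 fell and 6 were not called, with a median log2 difference of -0.24 against -0.05 for all loci tested. That is close to the share called over all loci, 65.4%, and is not a result about these regulators. RGF3 and RGF2 encode secreted peptides that raise PLETHORA levels in the root meristem. RGF3 was at 32.2, 34.3 and 36.6 TPM in WT and at 1.87, 1.79 and 2.95 TPM in sos2-2 (limma adjusted p = 7.88e-06). RGF2 was at 13.98, 17.2 and 16.1 TPM in WT and at 0.457, 1.42 and 0.616 TPM in sos2-2. It passed the filter only through WT, so its place in the counts above supports nothing. The activating auxin response factor ARF19 rose, from 10.3, 8.53 and 9.79 TPM to 56.7, 44.9 and 56.4 TPM (limma adjusted p = 1.64e-05). RGF1, a peptide of the same family as RGF2 and RGF3, was not called (means 3.14 TPM in WT and 3.76 TPM in sos2-2, limma adjusted p = 0.705). Among the peptide receptors in the list, RGI1 and RGI4 were called higher and RGI2, RGI3 and RGI5 lower.

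Of 10 partners in the stem cell niche, 9 were tested, 1 rose, 4 fell and 4 were not called (median -0.38), which is no larger a share than over all loci. The number called higher was 3 without sos2-2 replicate 1, and the number called lower was 2 with a mean of at least 5 TPM. MYB56, a repressor of divisions in the quiescent centre, fell from 19.9 ± 1.38 to 4.53 ± 0.467 TPM (limma adjusted p = 2.68e-05). FEZ, which promotes divisions of root cap stem cells, fell from 3.41 to 0.733 TPM. FEZ and ACR4, also called lower, passed the filter only through WT, so their place in the counts above supports nothing. TCP20, which binds PLETHORA proteins, rose from 8.67 to 18.3 TPM (limma adjusted p = 0.000237). Among auxin carriers of the PIN family and auxin synthesis enzymes, 5 of the 9 tested rose and 2 fell (median 0.59). PIN3 rose from 31.8 to 105.7 TPM (limma adjusted p = 7.33e-05) and the auxin synthesis enzyme gene YUC8 from 12.8 to 34.3 TPM (limma adjusted p = 9.59e-05).

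Most genes reported as targets of these factors in other organs were low in root tips, where 8 of 12 were below the filter. Of the 4 tested 2 were called higher and 0 lower (median 0.34), and 1 of them, CUC2, passed the filter only through sos2-2. The number called higher was 1 without WT replicate 1 or sos2-2 replicate 1 or 2 and 4 without a filter. The number called lower was 1 without sos2-2 replicate 1. CUC2, a boundary factor downstream of PLETHORA in shoot regeneration, was at 0, 0.0322 and 0.148 TPM in WT and at 2.73, 2.29 and 1.95 TPM in sos2-2. Without sos2-2 replicate 1 or 2 it was below the filter. ARR12, a cytokinin response regulator, rose from 22.1 to 28.6 TPM (limma adjusted p = 0.0156, lost without WT replicate 1, at adjusted p = 0.0572, and under quantile normalization, at adjusted p = 0.05197). CYCD3;1, a G1 cyclin, was at 7.41, 7.37 and 7.51 TPM in WT and at 7.64, 1.88 and 3.94 TPM in sos2-2 (limma adjusted p = 0.0984). Without sos2-2 replicate 1 it was called lower (adjusted p = 0.00317).

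Markers of cell types moved with genotype as well. In bulk tissue, fewer cells of a type and less RNA per cell cannot be told apart. Of 8 genes listed for lateral root founder cells and primordia, 5 rose, 0 fell and 3 were not called (median 1.73), and none was at 0. The list includes the auxin response factors ARF19 and ARF7, which are also counted among the genes that act before PLETHORA factors. GATA23, not called, had means of 1.79 TPM in WT and 0.977 TPM in sos2-2 (limma adjusted p = 0.112). Without WT replicate 2, 1 gene of the list was called lower. The summed level of the list was 54.0 to 59.0 TPM in WT and 244 to 427 TPM in sos2-2. LBD29 was the largest single part of that sum in each sos2-2 sample, so the sum alone does not tell how many of the genes rose. The rise was not in LBD29 alone, since 5 of the 8 genes were called higher. ARF19 was among them, with means of 9.54 TPM in WT and 52.7 TPM in sos2-2. PUCHI rose from 4.33 ± 0.252 to 29.5 ± 4.14 TPM (limma adjusted p = 1.27e-05). LBD29 stood at 2.38 to 2.78 TPM in WT and at 260.1, 93.1 and 112 TPM in sos2-2 (limma adjusted p = 2.97e-05). PLT3 is known to act in these primordia, and the part of such cells in its rise was not tested.

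Of 6 markers of dividing cells 5 fell, 0 rose and 1 was not called (median -1.98), and none was at 0. Their summed level was 138 to 199.8 TPM in WT and 33.9 to 45.4 TPM in sos2-2. KNOLLE, a syntaxin needed for cell plate formation, fell from 40.8 to 3.601 TPM (limma adjusted p = 2.73e-05), the replication clamp gene PCNA1 from 41.8 to 7.09 TPM (limma adjusted p = 2.63e-05) and the mitotic kinase gene CDKB1;1 from 24.5 to 3.11 TPM (limma adjusted p = 3.24e-05). BBM fell beside these genes, while PLT1 and PLT2 were not called. The part of dividing cells in the fall of BBM was not tested.

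Of 3 root cap markers 2 rose and 0 fell, with summed levels of 29.2 to 33.1 TPM in WT and 42.0 to 43.9 TPM in sos2-2. BRN2 rose from 12.1 to 20.2 TPM (limma adjusted p = 0.000856) and SMB from 6.99 to 12.9 TPM (limma adjusted p = 0.001), while BRN1 stood at 12.2 and 9.68 TPM (limma adjusted p = 0.0995). All 5 markers of root hair and endodermis cells past the meristem fell, with summed levels of 1805 to 2279.7 TPM in WT and 261 to 461 TPM in sos2-2. PRP3 fell from 1157 to 137 TPM (limma adjusted p = 8.49e-06), COBL9 from 52.3 to 10.2 TPM (limma adjusted p = 2.2e-05) and CASP2 from 130.5 to 11.1 TPM (limma adjusted p = 0.00127). Of 3 photosynthesis genes taken as shoot markers 2 were tested and both fell, LHCB3 from 10.99 to 5.85 TPM (limma adjusted p = 0.00253) and RBCS1A from 20.2 to 9.43 TPM (limma adjusted p = 0.0455). The call of RBCS1A was lost without any 1 WT sample, without sos2-2 replicate 3, without a filter and under TMM-type scaling (adjusted p up to 0.129).

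**Figure D5:**
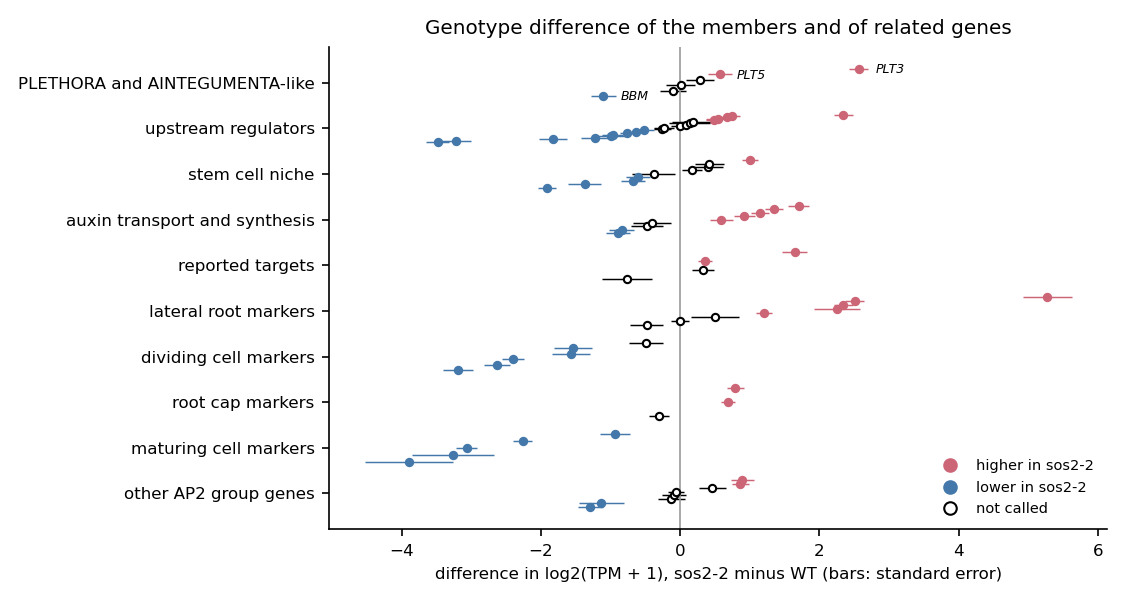
Difference in log2(TPM + 1), sos2-2 minus WT (horizontal axis), for the tested members and for related gene lists; each point is 1 gene, bars are standard errors, filled points are called and open points are not. PLT3 at 2.56 lies to the right with most lateral root markers, BBM at -1.10 to the left, and the dividing cell markers are all below 0.

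The genes whose pattern over the 6 samples was nearest to that of a called member were found by root mean square distance between centred log2(TPM + 1) values. Nearest to PLT3 were CRF2, a cytokinin response factor, LGT8, the urea transporter gene DUR3, GATL10 and XTH29, at distances of 0.103 to 0.121. CRF2 was at 28.6, 22.0 and 24.6 TPM in WT and at 131, 124.5 and 146 TPM in sos2-2. XTH29 passed the filter only through sos2-2, with means of 0.259 TPM in WT and 5.89 TPM in sos2-2, so its place here supports nothing. The likeness of CRF2 and of each other gene named here to its member follows from the choice by distance over the same samples. Nearest to BBM were PRORP1, CSLA02, emb2737, RAD54, a DNA repair gene, and QUA1, at 0.0487 to 0.0696. Nearest to PLT5 were NFU4, the blue light receptor gene CRY1, PUB43, HEXO3 and LOX1, at 0.0781 to 0.0981.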

How the data were processed

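The deposited table holds TPM per transcript isoform, computed by the authors. The unit was read from column sums of 1000000, and kallisto 0.46.2, sleuth 0.30.0 and TAIR10 are listed, with no role or order, per the submitters' processing notes. The sources used here state neither annotation release nor strand setting. Columns of other samples numbered 0.

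Isoform TPM were summed per locus. Loci or isoforms with a mean of at least 1 TPM were fitted with limma 3.58.1 (R 4.3.3, trend and robust) on log2(TPM + 1), with genotype as the only term and Benjamini-Hochberg adjustment over all features. Isoform shares were fitted for loci with a mean of at least 5 TPM and isoforms with a mean share of at least 5%. Fold changes on this scale understate those of low genes, and ratios are of mean TPM. Depth is unknown, so no counting interval is given. The fits were also run on simulated data in which few features differed. Most loci were called in the real data, so that run does not measure the error rate here.

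RefSeq models on TAIR10.1 matched 48148 of 48359 isoform rows and all 19 member rows. Python 3.11.15 and Biopython 1.88 gave sequences and alignments. The deposited table has no coordinates.

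The members and the 10 related lists (88 entries, of which 81 have their name in the reference) were chosen with earlier results of these data known. From each list the 3 genes with the smallest p are named, except 1 that is not reported here. RBK1, ACR4, GATA23, ARF7, RGF1 and the RGI genes were named outside this rule. For each called member the 5 nearest genes with a symbol are named. Alternatives left out single samples or changed the filter, pseudocount, scaling, variance model, share scale or replicate term.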

Additional observations from a re-analysis of the deposited data

How the results depend on the processing

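The calls of PLT3 higher and BBM lower held under every alternative in which each was tested. Without 1 sample, members called higher numbered 1 to 2 by locus, and PLT5 was the one lost. With a mean of at least 5 TPM, 0 members were called lower, since BBM was not tested. Member isoforms called lower numbered 0 to 2 without 1 sample. They numbered 1 with the replicate block, without a filter, with a pseudocount of 0.1 or under quantile normalization, and 0 with a mean of at least 5 TPM. Without a filter AIL1 was called higher (adjusted p = 0.00113). PLT1, never called, went from -0.19 to 0.19 without 1 sample, by locus and by isoform, to -0.0025 with a pseudocount of 5, and by isoform to -0.054 under quantile normalization. ANT turned to 0.013 by locus and 0.0086 by isoform under quantile normalization. All shares called numbered 225, but 0 to 28 without 1 sample, 0 with the replicate block and 704 on the logit scale, and 0 member shares were called in each. The family total without PLT3 had a ratio of 0.983 to 1.14 without 1 sample.

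Same-numbered samples deviated together with r of 0.18, 0.05 and 0.06 across loci. Pairs with different numbers had r of -0.20 to 0.18. With 3 samples per group, these values cannot decide whether same-numbered samples share a batch. With the replicate block 12547 loci were called against 12780, and of 66 single results 64 stayed the same. BBM model 1 was lost and RBK1 gained (adjusted p = 0.0411). Depth is unknown, so for PLT7 and ANT near 1 TPM a difference may not be detectable.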

Other observations

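The 10 other genes of the AP2 group, on the euAP2 and WRINKLED branches, were compared in the same fit. Of the 8 tested 2 rose, 2 fell and 4 were not called, with a median log2 difference of -0.07, no larger a share than the 65.4% called over all loci. The number called lower was 1 without WT replicate 1 or 3 and 4 without a filter. AP2, a floral organ identity factor, was at 29.3, 23.2 and 27.6 TPM in WT and at 51.0, 50.5 and 46.2 TPM in sos2-2 (limma adjusted p = 0.000639). WRI4, an activator of wax synthesis genes in stems, was at 18.4, 26.1 and 21.0 TPM in WT and at 34.5, 42.9 and 46.6 TPM in sos2-2 (limma adjusted p = 0.00244). AT2G41710 fell from 9.48, 7.54 and 8.14 TPM to 2.77, 2.26 and 3.56 TPM (limma adjusted p = 0.00051). In all 3 genes, named for the smallest p of their list, the groups did not overlap, which also held for 72.1% of all tested loci.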
